A study of Bos indicus x Bos taurus with 78 samples.

Results

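The miRNAs described here are bta-miR-191 and the 2 counted arms of bta-miR-425, bta-miR-425-5p and bta-miR-425-3p, written below without the species prefix. They were chosen by name, as 3 of the 1030 bovine miRNA rows of the deposited count matrix, of which 741 had at least 1 count. Small RNA was sequenced from biopsies of Longissimus lumborum, the loin muscle, of 78 male Bos indicus x Bos taurus cattle. The study asked which miRNAs differ with dark cutting, a meat quality fault in which beef stays dark after slaughter and which is known to follow low muscle glycogen, and with its degree. The 25 dark-cutting animals carried a labelled degree of 1/4 (8 animals), 1/3 (9 animals), 1/2 (3 animals), 2/3 (4 animals) or 3/4 (1 animal), and 53 animals were labelled normal. The labels give no treatment, age or further breed detail, and each library came from 1 animal, by the title numbers.

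In human and mouse, miR-191 and miR-425 lie close together in an intron of the gene DALRD3 and are cut from the same primary transcript. After Dicer cuts a hairpin, 1 arm is usually kept as the guide strand by an Argonaute protein and the other is mostly degraded, so the 2 arms of a hairpin usually differ in abundance. Both miR-191 and miR-425-5p are found in most tissues and blood cells, and both are used as reference miRNAs in PCR panels because their levels tend to be even between samples. In the bovine RefSeq annotation of assembly UOA_Brahman_1, DALRD3 stands between WDR6 and NDUFAF3. No genome build is named for the count matrix, so no positions are given.

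Libraries held between 1427817 and 4535675 counts, with a median of 3209320. Markers of skeletal muscle (6 of 6), red blood cells (6 of 6), white blood cells (8 of 8), endothelium (2 of 2), smooth muscle and pericytes (2 of 2) and fibroblasts (5 of 5) all passed the low-count filter, and none of them was at 0 in all animals. Muscle markers were by far the most abundant list, as the tissue label would have it, with a summed level of 585837 to 1226210 CPM (depth-scaled counts, here scaled by TMM factors, so that sums are not fixed) in dark-cutting animals and 414335 to 1331820 CPM in normal animals. The biopsies thus held markers of several cell types, and in such tissue fewer cells of a type and less RNA per cell cannot be told apart. Summed levels are weighted towards the most abundant markers. In mean log2 CPM, miR-1 stood at 19.7 in the muscle list, with miR-133a next at 14.2. miR-143 stood at 14.5 beside 7.77 for miR-145, and miR-126-3p at 12.2 beside 9.07 for miR-126-5p. Among fibroblast markers miR-21-5p stood at 11.6, with miR-199a-3p next at 8.96. Each of these sums thus mostly followed a single miRNA. In the red blood cell list, miR-16a, miR-486 and miR-92a each had a higher mean level than miR-451 and miR-144. That sum was thus weighted towards the first 3, of which miR-16a is also used as a reference miRNA in PCR panels. How far it followed the blood content of a biopsy was not tested. The title numbers fall below 600 in 26 animals and at 600 or above in 52. The labels do not say what the number stands for, and values are also given within these 2 ranges.

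All 3 miRNAs passed the low-count filter of each comparison, and their order was the same in every animal. miR-191 had 371 to 1864 counts per library, with a median of 930.5, and ranked 48 by total count among the 741 miRNAs with a count. miR-425-5p had 75 to 248 counts, with a median of 138.5, and ranked 114. miR-425-3p had 0 to 23 counts, with a median of 8, and ranked 234. It was absent from the counts of 1 normal library, whose depth allows up to 0.996 CPM at 3 counts. miR-191 exceeded miR-425-5p in 78 of 78 libraries, by a pooled ratio of 6.65. miR-425-5p exceeded miR-425-3p in 78 of 78, by a pooled ratio of 15.6. Mature miRNAs are of nearly equal length, and how well each is captured by the library kit was not measured, so these ratios are ratios of counts. A related row, miR-191b, held 12 counts in all, spread over 8 normal animals with at most 4 each and over 0 dark-cutting animals, and no other row had counts equal to those of a member.

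miR-191 had nearly the same level in dark-cutting and normal animals. It averaged 295 ± 37.7 CPM in dark-cutting animals (SD, n = 25; lowest 224, median 292, highest 364) and 287 ± 36.1 CPM in normal animals (SD, n = 53; lowest 210, median 287, highest 382). The ranges overlapped almost fully, and 13 of the 25 dark-cutting animals were above the normal median. The log2 fold change of dark-cutting over normal was 0.04 ± 0.05 (SE; edgeR quasi-likelihood test, adjusted p = 0.818). Its 95% interval, as a fold, ran from 0.960 to 1.10.

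miR-425-5p, the abundant arm, was at 42.7 ± 7.63 CPM in dark-cutting animals (SD, n = 25; lowest 29.3, median 40.1, highest 58.9) and 44.8 ± 6.97 CPM in normal animals (SD, n = 53; lowest 32.8, median 44.1, highest 62.5). The groups overlapped except for 1 dark-cutting animal of degree 1/3 below the normal range, and 10 of the 25 dark-cutting animals were above the normal median. The log2 fold change was -0.07 ± 0.06 (SE; edgeR, adjusted p = 0.691), with a fold interval of 0.875 to 1.04. Without the 9 animals of degree 1/3 it was 0.02 (edgeR, adjusted p = 0.948).

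miR-425-3p, the scarce arm, was at 2.82 ± 1.33 CPM in dark-cutting animals (SD, n = 25; lowest 0.975, median 2.81, highest 5.10) and 2.69 ± 1.23 CPM in normal animals (SD, n = 53; lowest 0, median 2.52, highest 6.50). All dark-cutting animals lay within the normal range. The log2 fold change was 0.06 ± 0.16 (SE; edgeR, adjusted p = 0.916), and at this depth the fold interval was wide, from 0.838 to 1.30.

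None of the 3 miRNAs was called in dark-cutting against normal animals. Over all 252 miRNAs tested, edgeR called 0 (0%) at an adjusted p under 0.05, as did DESeq2 and limma-voom, and 23 (9.13%) passed an unadjusted p of 0.05 in edgeR, 25 in DESeq2 and 30 in limma-voom. The median log2 fold change over the 252 was -0.01. In the authors' deposited table of the same contrast, the log2 fold changes were 0.05 ± 0.05 for miR-191, -0.06 ± 0.06 for miR-425-5p and 0.07 ± 0.16 for miR-425-3p, with adjusted p-values of 0.968, 0.946 and 0.992. Within animal numbers below 600 (8 dark-cutting and 18 normal), the log2 fold change of miR-425-5p was -0.20, and at 600 or above (17 dark-cutting and 35 normal) it was 0.01. The difference between these was -0.24 ± 0.13 (SE) and was not called (edgeR interaction, unadjusted p = 0.0698, adjusted p = 0.852 over 252 miRNAs).

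**Figure D1:**
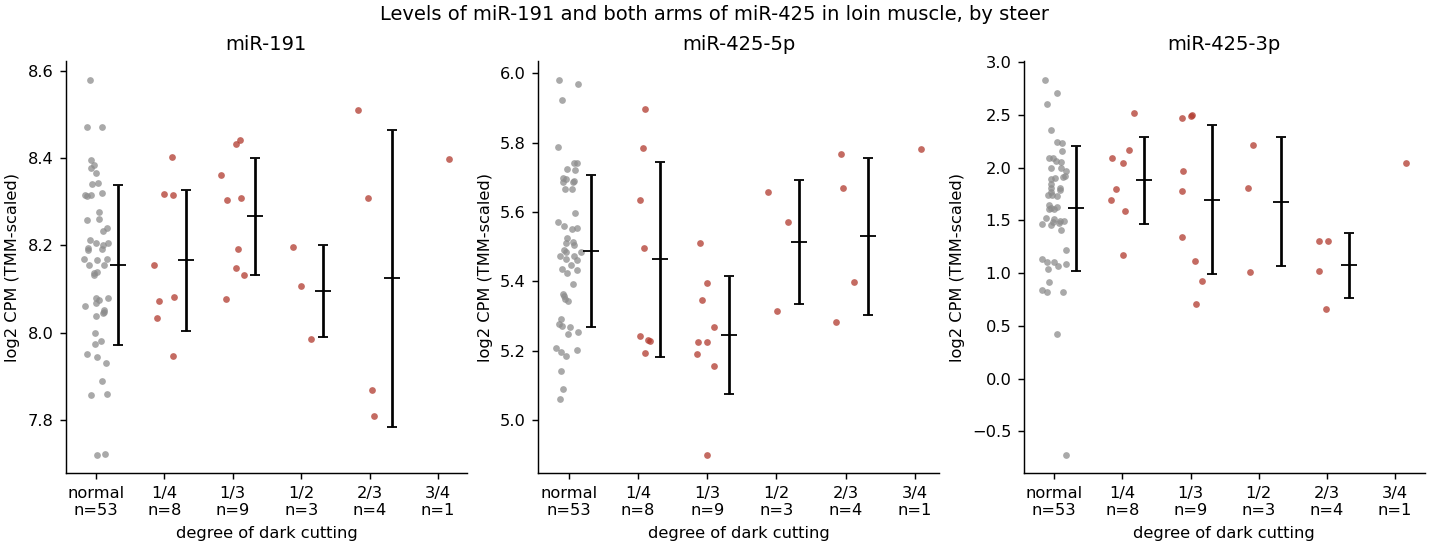
Level of each miRNA in every animal, as TMM-scaled log2 CPM on the vertical axis, by labelled degree of dark cutting. Points are animals, and the black mark and bar beside them are the mean and SD. The 9 animals of degree 1/3 sit low for miR-425-5p, 1 of them above the normal median, and the 4 of degree 2/3 sit low for miR-425-3p, 0 of them above it.

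The levels of miR-191 and miR-425-5p did not line up with degree, while the mean of miR-425-3p was lower at each step through degree 2/3 within dark-cutting animals. miR-425-5p averaged 44.8 ± 6.97 CPM in normal animals (n = 53), 44.3 ± 9.01 CPM at degree 1/4 (n = 8), 37.6 ± 4.40 CPM at 1/3 (n = 9), 45.3 ± 5.51 CPM at 1/2 (n = 3) and 46 ± 7.25 CPM at 2/3 (n = 4; SD throughout). The single animal of degree 3/4 had 54.4 CPM. The lowest group mean of miR-425-5p was thus in the middle of the scale, with neighbours on both sides close to that of normal animals. miR-191 averaged 287 ± 36.1 CPM in normal animals, 288 ± 32.6 CPM at 1/4, 308 ± 28.7 CPM at 1/3, 273 ± 19.8 CPM at 1/2 and 284 ± 67.5 CPM at 2/3, and the animal of degree 3/4 had 337 CPM. miR-425-3p averaged 2.69 ± 1.23 CPM in normal animals, 3.20 ± 1.06 CPM at 1/4, 2.98 ± 1.66 CPM at 1/3, 2.78 ± 1.32 CPM at 1/2 and 1.53 ± 0.423 CPM at 2/3, and the animal of degree 3/4 had 3.51 CPM. From 1/4 to 1/2 these means of miR-425-3p differed by less than their SDs.

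The low level of miR-425-5p at degree 1/3 was known when these miRNAs were chosen, so it is a description without a test. The 9 animals had 29.3 to 45 CPM, with a median of 36.8, against 32.8 to 62.5 CPM with a median of 44.1 in normal animals. The log2 fold change was -0.25 ± 0.09 (SE). miR-191, from the same transcript in human and mouse, stood at 269 to 347 CPM with a median of 315 at this degree, against 210 to 382 CPM and a median of 287 in normal animals, a log2 fold change of 0.10 ± 0.07. For miR-425-3p the log2 fold change was 0.15 ± 0.23. In this contrast, edgeR called 0 of 272 tested miRNAs at an adjusted p under 0.05 (0%), and 25 (9.19%) passed the unadjusted threshold, beside 0 and 25 in DESeq2 and 0 and 27 in limma-voom.

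At degree 1/4, miR-191 and miR-425-5p stood at log2 fold changes of 0.01 ± 0.08 and -0.02 ± 0.09 and miR-425-3p at 0.25 ± 0.24 over normal animals (SE; edgeR, adjusted p = 0.998 for each). At degree 1/2 the values were -0.07 ± 0.12, 0.02 ± 0.14 and 0.06 ± 0.37 (SE; edgeR, adjusted p = 0.994 for each). In the first of these contrasts 0 of 272 miRNAs were called (0%) and 3 (1.1%) passed the unadjusted threshold, beside 6 in DESeq2 and 7 in limma-voom. In the second, 0 were called (0%) and 13 (4.78%) passed it, beside 13 in DESeq2 and 15 in limma-voom. DESeq2 and limma-voom called 0 in both. The 3 animals of degree 1/2 had 292, 275 and 253 CPM of miR-191, 39.2, 49.9 and 46.9 CPM of miR-425-5p, and 4.04, 1.41 and 2.88 CPM of miR-425-3p, all within the normal ranges.

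At degree 2/3 the scarce arm had the largest of the 3 fold changes. The 4 animals had 6, 5, 6 and 3 counts of miR-425-3p, or 1.42, 1.86, 1.86 and 0.975 CPM, each below the normal median of 2.52 CPM and within the normal range. The log2 fold change was -0.82 ± 0.39 (SE), at an unadjusted p of 0.0391 and an adjusted p of 0.988 (edgeR), so it was not called. Its unadjusted p was 0.0597 in DESeq2 and 0.107 in limma-voom. edgeR called 1 of the 272 miRNAs in this contrast (0.368%), and 7 (2.57%) passed the unadjusted threshold. The same 4 animals had 50.3, 53.9, 41.6 and 38.4 CPM of miR-425-5p, on both sides of the normal median of 44.1 CPM. For miR-191 they had 316, 233, 364 and 224 CPM, again on both sides of the normal median.

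**Figure D2:**
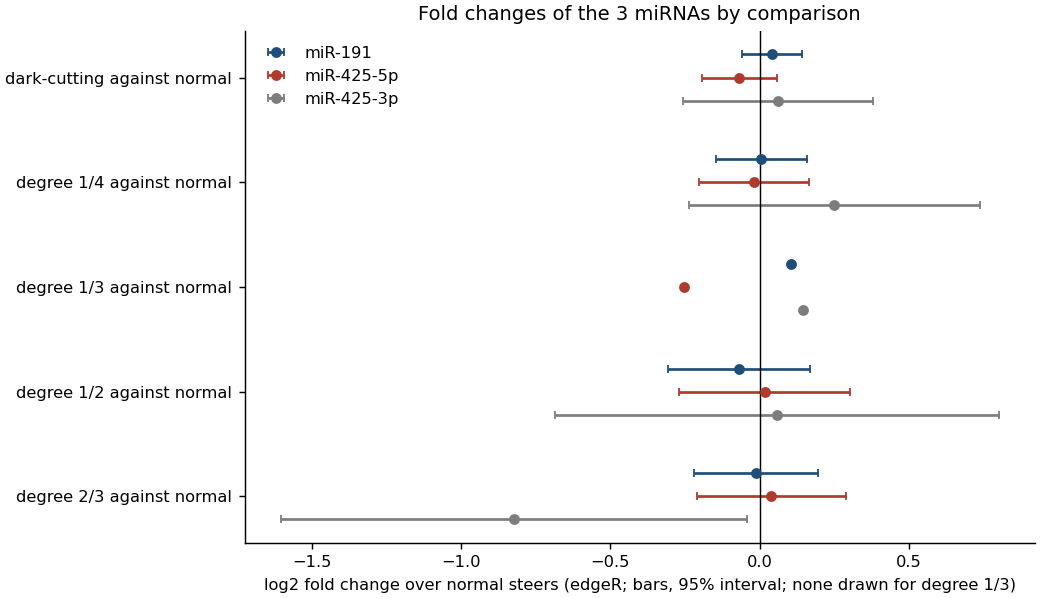
Log2 fold change of each miRNA over normal animals (horizontal axis) in 5 comparisons, from edgeR, with 95% intervals. Intervals are left out for degree 1/3, where the value of miR-425-5p was known beforehand. The widest intervals belong to miR-425-3p, whose median count was 8.

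A slope over all 78 animals, with normal taken as degree 0, gave log2 changes per unit of degree of 0.08 ± 0.11 for miR-191, -0.04 ± 0.14 for miR-425-5p and -0.13 ± 0.37 for miR-425-3p (SE; edgeR, adjusted p = 0.836, 0.951 and 0.943). edgeR called 1 of the 272 miRNAs by this slope (0.368%), and 30 (11%) passed the unadjusted threshold. Within the 25 dark-cutting animals, the slopes were -0.06 ± 0.29, 0.41 ± 0.35 and -1.42 ± 0.84 for the same miRNAs (SE; edgeR, adjusted p = 0.998 for each). There edgeR called 0 of 251 (0%), and 9 (3.59%) passed the unadjusted threshold, as did 9 in DESeq2 and 9 in limma-voom, which also called 0. The 2 arms of miR-425 thus had slopes of opposite sign within dark-cutting animals, and the 95% interval of each covered 0. For miR-425-3p the unadjusted p of the slope was 0.0978 (edgeR). Without the single animal of degree 3/4 its slope was steeper, at -2.14 (edgeR, unadjusted p = 0.0373, adjusted p = 0.960). That was the steepest value with 1 animal left out, and the shallowest was -1.10, without replicate 1 of degree 2/3.

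The ratio of the 2 arms within a library needs no scaling factor. The 3p arm made up 6.42% of miR-425 counts in dark-cutting animals (258 of 4020; exact 95% interval 5.68 to 7.22%) and 5.82% in normal animals (463 of 7951; 5.32 to 6.36%). The intervals cover counting error only. By degree its share was 7.05% at 1/4, 7.55% at 1/3, 6.20% at 1/2, 3.18% at 2/3 (20 of 629; 1.95 to 4.87%) and 6.06% at 3/4. The mean log2 ratio of 5p to 3p counts, with 0.5 added to each, was 3.98 ± 0.78 in dark-cutting animals and 4.11 ± 0.80 in normal animals (SD, n = 25 and 53). The difference of -0.13 did not pass a two-sided permutation test (p = 0.497, adjusted p = 0.746 over 3 ratios). Leaving out 1 animal gave -0.18 to -0.07, the value nearest 0 being that without the normal library with 0 counts of miR-425-3p, whose log2 ratio of 7.53 was set by the added 0.5. It was -0.31 below animal number 600 and -0.06 at 600 or above.

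In the 4 animals of degree 2/3, the log2 ratio of the arms was 4.80 ± 0.33, against 4.11 ± 0.80 in normal animals (SD, n = 4 and 53), and each of the 4 was above the normal median. The difference of 0.69 gave p = 0.0907 in a two-sided exact permutation test over 395010 splits (adjusted p = 0.363 over 4 such tests, chosen after the values were seen). Across all 78 animals the split of counts between the arms varied more than counting alone would give, with a chi-square per degree of freedom of 2.11.

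The ratio of miR-425-5p to miR-191 had its lowest group mean at degree 1/3. On the log2 scale it was -2.79 ± 0.35 in dark-cutting animals and -2.68 ± 0.25 in normal animals (SD, n = 25 and 53), a difference of -0.11 (two-sided permutation test, p = 0.103, adjusted p = 0.310). At degree 1/3 it was -3.04 ± 0.19 (SD, n = 9), and 9 of 9 animals lay below the normal median of -2.69. Since miR-425-5p at this degree was known beforehand, that count is a description, and every difference below or above that includes these animals, its p-value with it, is not independent of the choice of miRNAs. Without degree 1/3 the difference was 0.02 (adjusted p = 0.922). Below animal number 600 the difference was -0.22 (8 dark-cutting, 3 of them of degree 1/3, and 18 normal), and at 600 or above it was -0.07 (17, 6 of them of degree 1/3, and 35), given as descriptions. The ratio of miR-191 to miR-425-3p differed by -0.02 between the phenotypes (permutation test, adjusted p = 0.922).

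With TMM scaling, miR-191 was 1 of the least variable miRNAs between animals. The SD of its log2 CPM over 78 animals was 0.18, rank 3 from the lowest of 272 miRNAs, whose median SD was 0.45. Of the 40 miRNAs closest to it in mean level, 0 had a lower SD, and their median was 0.29. Its level in the highest animal was 1.81 times that in the lowest. Its SD was 0.19 in dark-cutting and 0.18 in normal animals. miR-425-5p had an SD of 0.23, rank 17, and 1 of its 40 neighbours in level was lower. miR-425-3p had an SD of 0.59, rank 198, with 10 of its 40 neighbours lower. Its CPM varied by 46% between animals (coefficient of variation), beside 32.9% from counting alone at its mean count, while the same values were 12.6% and 3.23% for miR-191 and 16.3% and 8.33% for miR-425-5p.

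miR-191 and miR-425-5p can also be set beside 14 other miRNAs that are used as references in PCR panels. On this list of 16, with a median SD of 0.25, miR-191 ranked 2 and miR-425-5p ranked 5 from the lowest. The extremes were miR-186 at 0.16 and miR-24-3p at 0.37. The standing of miR-191 depended on the scaling. With counts scaled by the library total alone, its SD was 0.37, rank 47, and 14 of its 40 neighbours in level were lower, whereas miR-425-5p, at 0.33, rank 22, still had 1 of 40 lower.

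**Figure D3:**
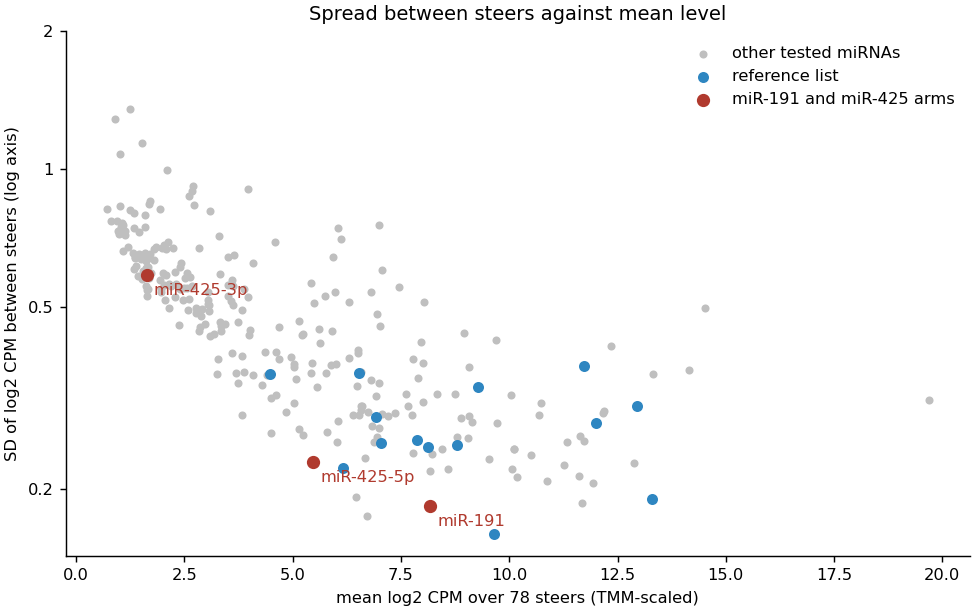
SD of log2 CPM between the 78 animals (vertical axis, log scale) against mean log2 CPM (horizontal axis) for the 272 tested miRNAs, TMM-scaled, with the list of reference miRNAs in blue and the 3 described miRNAs in red. miR-191 and miR-425-5p lie at the lower edge of the cloud and miR-425-3p within it.

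Although they are neighbours on the same transcript in human and mouse, miR-191 and miR-425-5p showed no correlation past the test among animals on the TMM scale. Pearson's r of their TMM-scaled log2 CPM was 0.05 and Spearman's rho 0.05 over 78 animals (permutation p = 0.678 and 0.640, adjusted p = 0.678 and 0.640 over 3 pairs). In this and the other pairs both levels share the animal's scaling factor, a link that the permutations do not keep. Without the 2 animals farthest from the median of miR-191 r was 0.03. It was -0.25 within dark-cutting and 0.23 within normal animals, and 0.48 below animal number 600 (n = 26) and -0.06 at 600 or above (n = 52), a difference between ranges that was not tested. With total-count scaling r was 0.67. On that scale both fell as the summed skeletal muscle markers rose, with r of -0.73 for miR-191 and -0.70 for miR-425-5p, whose part in the 0.67 was not tested.

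The 2 arms of miR-425 were not correlated past the test on this scale either. Their r was -0.15 and rho -0.18 (permutation p = 0.203 and 0.116, adjusted p = 0.548 and 0.349), and -0.11 without the 2 farthest animals. It was -0.30 below animal number 600 and -0.03 at 600 or above. With total-count scaling it was 0.36. For miR-191 with miR-425-3p, r was 0.10 and rho 0.12 (permutation p = 0.365 and 0.300, adjusted p = 0.548 and 0.450), and 0.06 without the 2 farthest animals. It was -0.24 and 0.14 in the lower and the upper number range. Where counts are as few as those of miR-425-3p, a weak correlation carries little information.

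**Figure D4:**
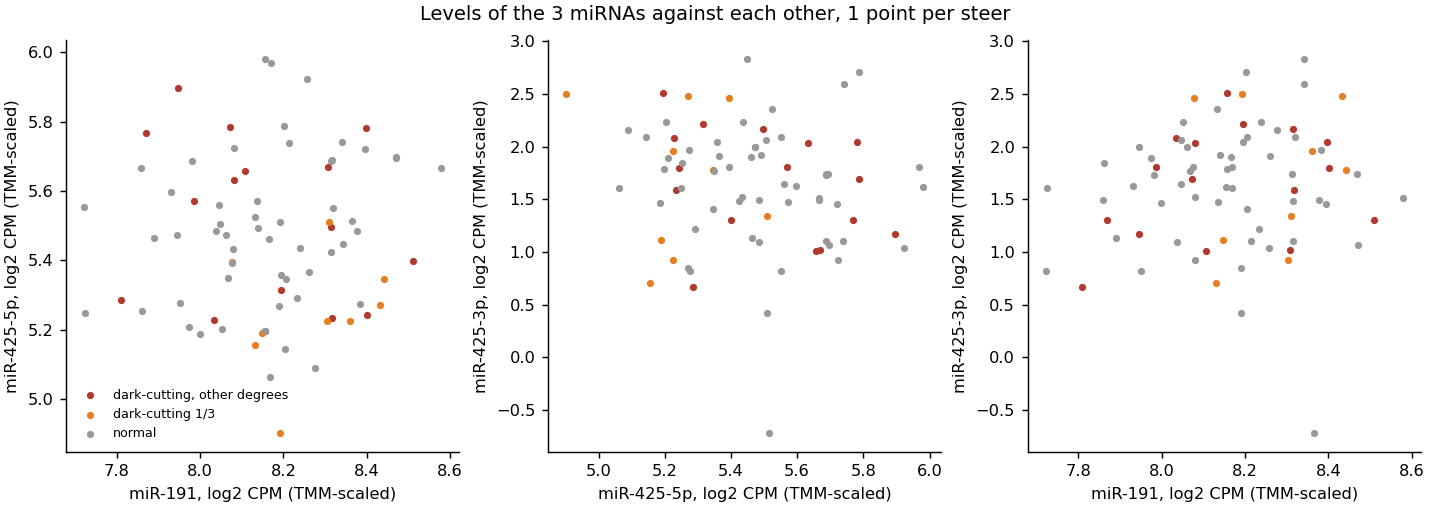
TMM-scaled log2 CPM of the 3 miRNAs against each other, with 1 point per animal, coloured by phenotype. The clouds show no slope (r of 0.05, -0.15 and 0.10, left to right), and the animals of degree 1/3 lie low for miR-425-5p, at 269 to 347 CPM of miR-191.

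A list of 19 pairs of miRNAs known to come from shared transcripts, the arms of miR-126 among them, gave a scale for these values. Their median r over the same 78 animals was 0.50, from -0.20 for miR-25 with miR-106b to 0.88 for miR-379 with miR-411a, beside a median of 0.00 over all 36856 pairs of tested miRNAs. The r of miR-191 with miR-425-5p was above that of 60% of all pairs. Only 2 of the 19 listed pairs, miR-25 with miR-106b and miR-99a-5p with let-7c, were lower. miR-191 and miR-425-5p also varied little between animals, with SDs of 0.18 and 0.23, ranks 3 and 17 of 272 from the lowest. For miR-425-5p counting alone gave a coefficient of variation of 8.33%, beside 16.3% in all. How far small spread and counting error lowered their r was not tested. With total-count scaling the median of the listed pairs was 0.65, and miR-191 with miR-425-5p, at 0.67, stood beside it. No median over all pairs was taken on that scale. There miR-425-5p ranked 43 among the 271 other miRNAs by its rho with miR-191 (0.64).

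**Figure D5:**
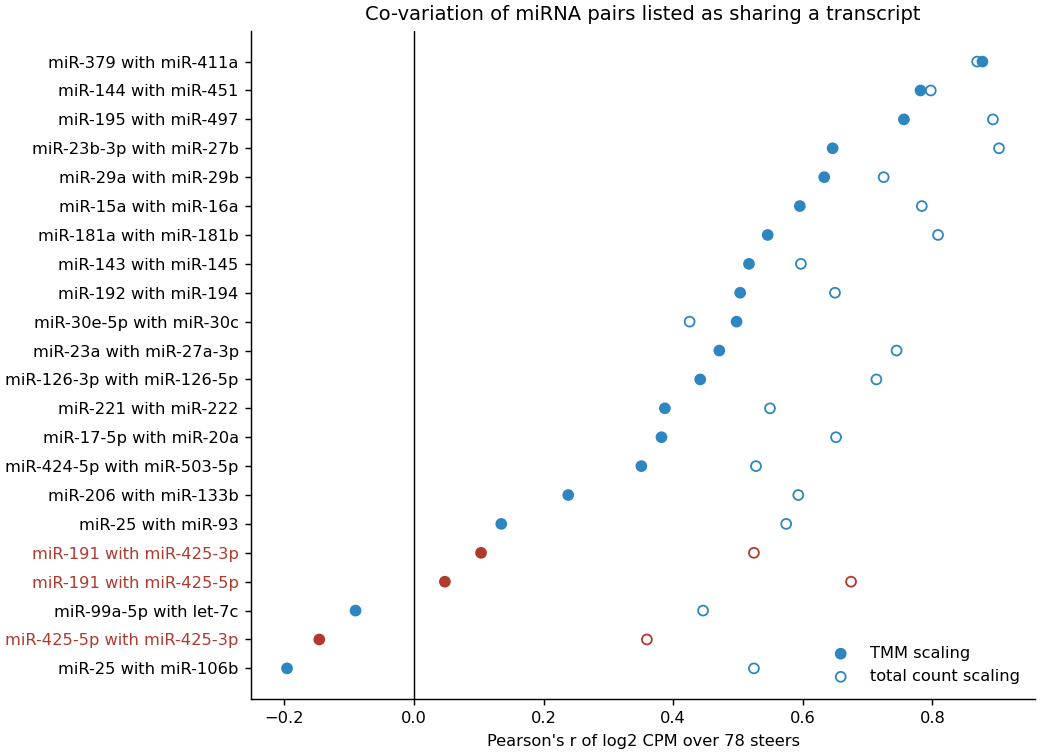
Pearson's r of log2 CPM over 78 animals (horizontal axis) for 19 pairs of miRNAs listed as sharing a transcript (blue) and the 3 pairs described here (red). Filled circles are TMM-scaled and open circles scaled by total count; the red pairs lie between -0.15 and 0.10 when filled and between 0.36 and 0.67 when open.

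miR-425 was also compared with the other 19 miRNAs that had both arms counted past the filter. Its median log2 ratio of 5p to 3p was 4.03, rank 13 of 20 by size, from 0.09 for miR-1388 to 8.77 for miR-99a. In 10 of the 20, miR-425 among them, the 5p arm was the more abundant. The SD of its ratio between animals, 0.79, ranked 16 of 20 from the lowest. The r between its arms, -0.15, lay between -0.39 for miR-22 and 0.87 for miR-199a.

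The 5 miRNAs whose levels followed miR-191 most closely over 78 animals were miR-125b (rho 0.70), miR-423-3p (0.68), miR-151-5p (0.67), miR-320a (0.66) and miR-93 (0.58). By the same measure miR-425-3p ranked 88 and miR-425-5p 116 among the 271 other miRNAs. For miR-425-5p the closest were miR-126-3p, an endothelial miRNA (rho 0.35), miR-142-5p, a miRNA of blood cells (0.34), miR-143, of smooth muscle (0.32), miR-196b (0.32) and miR-146a, of inflammation (0.32). For miR-425-3p they were miR-181b (0.36), miR-106b (0.35), miR-107 (0.35), miR-103 (0.34) and miR-505 (0.30). These are descriptions on the TMM scale, since each animal's scaling factor is shared by all its miRNAs. For miR-425-5p they depended on the scaling: with total-count scaling the same 5 miRNAs ranked 19, 102, 126, 66 and 192, and miR-191 moved up from rank 91 to rank 4 (rho 0.64).

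On the TMM scale, miR-191 and miR-425-5p had correlations of opposite sign with the markers of white blood cells and vessels, those of miR-191 turning with total-count scaling. Each miRNA level and each marker sum share the animal's scaling factor, and the permutations do not keep that link. The p-values of all marker correlations thus do not test a relation apart from the scaling. miR-425-5p was higher where the summed white blood cell markers were higher (r 0.35, rho 0.33; permutation p = 0.00157 and 0.00359, adjusted p = 0.00824 and 0.0177 over 21 relations). The same held for endothelium (r 0.34, rho 0.32; p = 0.00202 and 0.00506, adjusted p = 0.00848 and 0.0177) and red blood cells (r 0.34, rho 0.28; p = 0.00121 and 0.0124, adjusted p = 0.00824 and 0.0327). Without the 2 animals farthest from the median, these r values were 0.27, 0.30 and 0.21. The red blood cell value was 0.24 without normal replicate 19, which had the highest miR-425-5p of all animals, 62.5 CPM. Since the red blood cell sum was weighted towards miR-16a, miR-486 and miR-92a, its r values describe that sum and not blood content. Below animal number 600 r was 0.23, 0.10 and 0.07 for the 3 lists, and at 600 or above it was 0.34, 0.43 and 0.41. For smooth muscle and pericytes r was 0.27 and rho 0.32 (permutation p = 0.0184 and 0.00409, adjusted p = 0.0430 and 0.0177). With levels centred within phenotype and degree that r was 0.22 and no longer passed (permutation test, adjusted p = 0.135).

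On the TMM scale miR-191 was lower where white blood cell markers were higher (r -0.40, rho -0.40; permutation p = 0.000320 and 0.000370, adjusted p = 0.00672 and 0.00777) and where smooth muscle and pericyte markers were (r -0.36, rho -0.36; p = 0.00134 and 0.00132, adjusted p = 0.00824 and 0.0139). Without the 2 farthest animals, r was -0.38 and -0.33. Within the number ranges r was -0.30 and -0.38 for white blood cells and -0.40 and -0.30 for smooth muscle. For endothelium r was -0.29 and rho -0.32 (permutation p = 0.0112 and 0.00437, adjusted p = 0.0294 and 0.0177), and with levels centred within phenotype and degree r was -0.26 and no longer passed (adjusted p = 0.0526). With total-count scaling the signs for miR-191 turned, to 0.21 for white blood cells, 0.06 for smooth muscle and 0.50 for endothelium, while those of miR-425-5p with these lists stayed above 0.

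Skeletal muscle markers went with lower miR-191 (r -0.33, rho -0.24; permutation p = 0.00365 and 0.0337, adjusted p = 0.0128 and 0.0709) and lower miR-425-3p (r -0.31, rho -0.29; p = 0.00629 and 0.0100, adjusted p = 0.0189 and 0.0301). For miR-425-3p, r was 0.15 below animal number 600 and -0.46 at 600 or above, so that relation did not hold in the lower range. The skeletal muscle sum was mostly miR-1. On the TMM scale none of the 3 miRNAs was correlated past the test with fibroblast markers (r from -0.10 to -0.06) or with those of fat and liver (r from -0.07 to 0.20), of which 2 of 3 passed the filter. With total-count scaling all 6 of these relations passed, with r from 0.40 to 0.60 and adjusted p of at most 0.000510 (permutation tests). On that scale each level is a share of a library total in which miR-1 stood highest, at a mean log2 CPM of 19.7. Shares of 1 total are tied to each other, and the permutations do not keep that tie. These p-values thus do not test a relation apart from the scaling. The summed white blood cell level was 130 to 314 CPM in dark-cutting animals, with a median of 180, and 132 to 445 CPM in normal animals, with a median of 201. That of endothelium was 3155 to 7146 CPM in dark-cutting and 3543 to 7989 CPM in normal animals, and that of red blood cells 1505 to 2000.5 CPM and 1433 to 4946 CPM in the same order. All these ranges overlapped between the phenotypes, and their part in the levels of miR-191 and miR-425 was not tested.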

How the data were processed

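Per the labels' protocols, frozen biopsies gave total RNA for NEXTflex small RNA libraries. FastQC, Trimmomatic 0.32 and DESeq2 1.34.0 are listed in the submitters' processing notes. Not given in the sources used here are the build, the miRNA reference, and the tools that aligned and counted reads. The authors deposited whole-number counts per mature miRNA and animal, without normalization. Their second deposited table gives, per miRNA, a mean normalized signal, a log2 fold change with its error, a Wald score and a p-value, raw and adjusted. It names no contrast, and a DESeq2 refit of dark-cutting against normal animals gave its Wald scores within 7.55e-08.

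The tests used edgeR 4.0.16 under R 4.3.3 (quasi-likelihood, robust, TMM, Benjamini-Hochberg over all tested miRNAs, threshold 0.05). The filter was filterByExpr at 10 counts for dark-cutting against normal (252 miRNAs) and 10 counts in at least 8 libraries with 15 in all for degrees and trends (272, or 251 within dark-cutting). All degrees shared 1 fit. Log2 CPM used a prior count of 2. DESeq2 1.42.0, limma-voom (limma 3.58.1), other scalings, no filter, the number range and leaving out animals were alternatives. Permutation tests drew 100000 resamples, two-sided, and exact tests enumerated all splits. Marker sums add the CPM of all listed miRNAs, miR-122 of the fat and liver list among them, which missed the filter. The edgeR tests of phenotype, degree and slope were tested on simulated counts, and the edgeR interaction, DESeq2 and limma-voom fits were not. The named miRNAs are the 3 described, the 5 closest to each by rho, and the extremes of each list. The miRNAs and lists were chosen with earlier results of these data known. A level is relative to all other miRNAs in its library.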

Additional observations from a re-analysis of the deposited data

How the results depend on the processing

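No call was gained or lost for the fold changes of the 3 miRNAs under any alternative run, leave-one-out fits included. No paired analysis was possible because the replicate numbers only count animals within a group. Total-count scaling moved the median log2 fold change of dark-cutting over normal by 0.11 over all miRNAs. With it, miR-425-5p was at 0.0293 in dark-cutting against normal, 0.00123 at degree 1/4 and 0.19 per unit of degree over all animals, miR-425-3p at 0.0867 per unit over all animals, and miR-191 at 0.0938 at degree 1/2, 0.0714 at 2/3 and 0.0981 per unit within dark-cutting animals. The correlations between miRNAs were 0.67, 0.36 and 0.52 (miR-191 with miR-425-5p, the arms, miR-191 with miR-425-3p), and the SD of miR-191 was 0.37. With marker sums, r changed sign for miR-191 with red blood cells (0.64), white blood cells (0.21), endothelium (0.50), smooth muscle (0.0569), fibroblasts (0.60) and fat and liver (0.55), for miR-425-5p with fibroblasts (0.46) and skeletal muscle (-0.70), and for miR-425-3p with red (0.36) and white (0.22) blood cells, endothelium (0.32), smooth muscle (0.18) and fibroblasts (0.40). Of relations that missed the threshold, those with fibroblasts and with fat and liver passed it for all 3 miRNAs. So did miR-191 and miR-425-3p with red blood cells, miR-425-5p with skeletal muscle, and miR-425-3p with endothelium (permutation tests, adjusted p of at most 0.00518). miR-191 with white blood cells and with smooth muscle no longer passed (permutation tests, adjusted p = 0.0691 and 0.620). With total-count scaling all levels are shares of 1 library total, a tie that the permutations do not keep. These p-values thus do not test relations apart from the scaling, and the part of that tie in the changes was not tested.

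Values near 0 changed sign elsewhere. miR-191 at degree 2/3 was at 0.04996 with DESeq2 size factors, 0.0505 with DESeq2 and 0.0772 with no filter, and its slope within dark-cutting animals at 0.0109 and 0.0117 with size factors and DESeq2. miR-425-5p at degree 1/2 was at -0.00191 with DESeq2, and its slope over all animals at 0.00395 with no filter. Without degree 1/3, miR-425-5p was at 0.0213, its slope at 0.13 and its log2 ratio to miR-191 at 0.0208. There miR-425-3p fell below the filter of the slope within dark-cutting animals. At numbers of 600 or above miR-425-5p was at 0.0112 and the ratio of miR-191 to miR-425-3p at 0.00929, which was 0.00672 with 1 added to each count. Below 600 the ratio of miR-425-5p to miR-191 was -0.22. Centring within phenotype and degree ended the calls of miR-191 with endothelium (-0.26) and of miR-425-5p with smooth muscle (0.22). The number ranges for ratios, all alternatives of the ratio of miR-191 to miR-425-3p, the exact tests by degree and the value without normal replicate 19 were chosen after seeing the data.

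Leaving out 1 animal gave miR-425-3p at degree 1/2 from -0.33 to 0.33, miR-425-5p at 1/2 from -0.0764 to 0.11, at 1/4 from -0.0867 to 0.0196 and at 2/3 from -0.0425 to 0.15, and miR-191 at 1/4 from -0.0255 to 0.0362 and at 2/3 from -0.0854 to 0.0865. Slopes ran over all animals from -0.26 to 0.0212 (miR-425-3p) and -0.12 to 0.0155 (miR-425-5p), and within dark-cutting from -0.18 to 0.11 (miR-191) and -2.14 to -1.10 (miR-425-3p). The log2 ratio of miR-191 to miR-425-3p ran from -0.0642 to 0.0509. Over all miRNAs, the slope called 3 with DESeq2 size factors, total-count scaling, no filter or DESeq2, 0 with limma-voom, and 0 to 3 without 1 animal. Degree 2/3 called 0 to 1, and dark-cutting against normal 2 with no filter. Depth limits miR-425-3p, at a median of 8 counts.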
